A study of Mus musculus with 10 samples.

Results

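The claudins are a family of small proteins that cross the cell membrane and join neighbouring epithelial cells in the strands of the tight junction. The genes described here are 10 of its members, Cldn1, Cldn2, Cldn3, Cldn4, Cldn5, Cldn7, Cldn8, Cldn12, Cldn15 and Cldn23, among 22180 mouse genes measured, and each was read by 1 probe set. They were chosen by name as sealing and pore-forming claudins, with earlier results of these data known. A further 20 claudin genes on the array serve as a comparison.

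RNA came from the jejunum, the middle part of the small intestine, on 10 whole-transcript arrays. The Fed Knockout group (5 arrays) carried floxed Pcyt1a and VilCreERT2, a Cre recombinase activated by tamoxifen and driven by the villin promoter of the intestinal epithelium. The Fed Control group (5 arrays) carried floxed Pcyt1a without Cre, and both groups were given tamoxifen for 5 days. All mice were females of 10 to 12 weeks that had high-fat food for 3 days, an overnight fast and 2 hours of the same food before 3 cm of jejunum were taken. Pcyt1a encodes the enzyme that sets the rate of phosphatidylcholine synthesis. Because Cre was carried by the knockout group alone, active Cre and loss of Pcyt1a cannot be told apart. The comparison asks which jejunal transcripts differ after a fatty meal when the epithelium has lost Pcyt1a.

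In a tight junction, sealing claudins such as the products of Cldn1, Cldn3, Cldn4, Cldn5 and Cldn8 restrict the path between cells, while claudin-2 and claudin-15 form pores for small cations. In the adult small intestine claudin-2 is known from the crypts and claudin-15 as the main sodium pore. Claudin-3 and claudin-4 are also the receptors for the enterotoxin of Clostridium perfringens.

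The 250 bases before the annotated gene start are shown for the pair of claudins with the largest differences, Cldn4 and Cldn2, and for Cldn3, the gene next to Cldn4 on chromosome 5. The sequences are from RefSeq (build GRCm38.p6), are written in the direction of the gene and have motif matches in capitals.
Cldn4, chr5:134946935-134947184, minus strand: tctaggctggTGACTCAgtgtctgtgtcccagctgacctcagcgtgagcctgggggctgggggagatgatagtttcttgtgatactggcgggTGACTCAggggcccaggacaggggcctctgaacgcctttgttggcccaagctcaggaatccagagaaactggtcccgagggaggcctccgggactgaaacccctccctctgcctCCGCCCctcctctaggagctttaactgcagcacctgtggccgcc
Cldn3, chr5:134985964-134986213, plus strand: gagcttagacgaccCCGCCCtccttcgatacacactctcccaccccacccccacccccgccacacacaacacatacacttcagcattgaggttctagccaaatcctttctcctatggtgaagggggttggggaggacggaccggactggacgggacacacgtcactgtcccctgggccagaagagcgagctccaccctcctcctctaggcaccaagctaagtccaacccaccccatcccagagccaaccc
Cldn2, chrX:139800558-139800807, plus strand: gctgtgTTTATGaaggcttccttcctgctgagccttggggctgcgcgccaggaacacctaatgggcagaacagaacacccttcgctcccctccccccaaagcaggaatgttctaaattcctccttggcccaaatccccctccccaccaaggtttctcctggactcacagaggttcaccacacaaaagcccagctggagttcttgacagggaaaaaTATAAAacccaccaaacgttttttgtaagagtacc
Capitals mark the GC box (GGGCGG), the AP-1 motif (TGANTCA), the TATA motif (TATAAA) and the CDX motif (TTTATG), searched on both strands together with the E-box (CANNTG) and the GATA motif (GATAAG), which are not capitalised. The Cldn4 window held 2 AP-1 matches, which begin 240 and 158 bases before the start, and 1 GC box at 44 bases. AP-1 matches were present in 6.75% of all 32851 promoter windows of this length, and GC boxes in 32.7%. The Cldn3 window held 1 GC box, at 236 bases, and no match to the other motifs. The Cldn2 window held a CDX match at 244 bases and a TATA match at 35 bases, motifs present in 10.8% and 12.4% of windows, and no GC box or AP-1 match. No GATA match was present in these 3 windows (6.55% of all windows), and E-boxes (66.2%) were present in those of Cldn4 and Cldn2. No match overlapped a match to another motif here. Of the 10 claudins, 8 had a window in the table. A match describes these letters and is not a measured site.

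Pcyt1a checked the labels. Knockout arrays averaged 7.51 ± 0.16 (SD, n = 5) on the log2 scale and control arrays 9.22 ± 0.20 (SD, n = 5), and it fell to 30.6% of the control level (limma adjusted p = 6.51e-05). Array medians of intensity lay between 45.8 and 48.1. Intestinal genes checked the labelled tissue, with the enterocyte gene Fabp2 between 13.43 and 13.66 and Sis between 13.23 and 13.36 on the log2 scale in all 10 arrays. The ileal bile acid binding gene Fabp6 differed among the knockouts, and was singled out after its values were seen. It was 4.31 in knockout 1, 11.20 in knockout 2, 8.59 in knockout 3, 9.46 in knockout 4 and 10.25 in knockout 5, against 4.36 to 5.38 in control. Knockout 1 thus stood with the controls for this marker, and claudin results that depend on knockout 1 are given without it too. Markers of the duodenum and proximal intestine ran the other way, with a mean deviation of 0.24 in knockout 1, between -0.40 and -0.28 in knockouts 2 to 5 and between -0.0042 and 0.46 in control. Of these 8 markers 6 had lower values in knockout and 1 was called, S100g, a calcium-binding protein of the proximal gut, which fell by 1.79 (SE 0.33, limma adjusted p = 0.0469). Over all genes 49.9% had higher values in knockout and 0.171% were called lower. Onecut2 stood at -1.30 (SE 0.54, adjusted p = 0.357). The labels place every piece at the middle of the small intestine. Whether the pieces, that of knockout 1 included, came from the same place along it was not tested, nor was the part of that place in the differences given here. Nothing in the labels says that each array is a separate animal, so part of the spread behind each p-value may be technical.

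Of the 10 claudins, Cldn4 had by far the largest difference and Cldn2 the next, in opposite directions, and the other 8 had differences between -0.17 and 0.24 on the log2 scale. Across the family 7 had higher and 3 lower mean values in knockout. The median difference was 0.10, and over all genes it was -3.54e-04 with 49.9% higher. With limma and an adjusted p under 0.05, 0 of the 10 were called, where 0.343% of all genes were. At an unadjusted p under 0.05 there were 2 of 10, Cldn4 and Cldn2, against 12.1% of all genes. The arrays of the groups did not overlap for 1 of 10, Cldn4, against 1.56% of all genes with all knockouts lower and 1.2% with all knockouts higher. In a whole piece of jejunum, fewer cells of a type and less RNA per cell cannot be told apart.

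**Figure D1:**
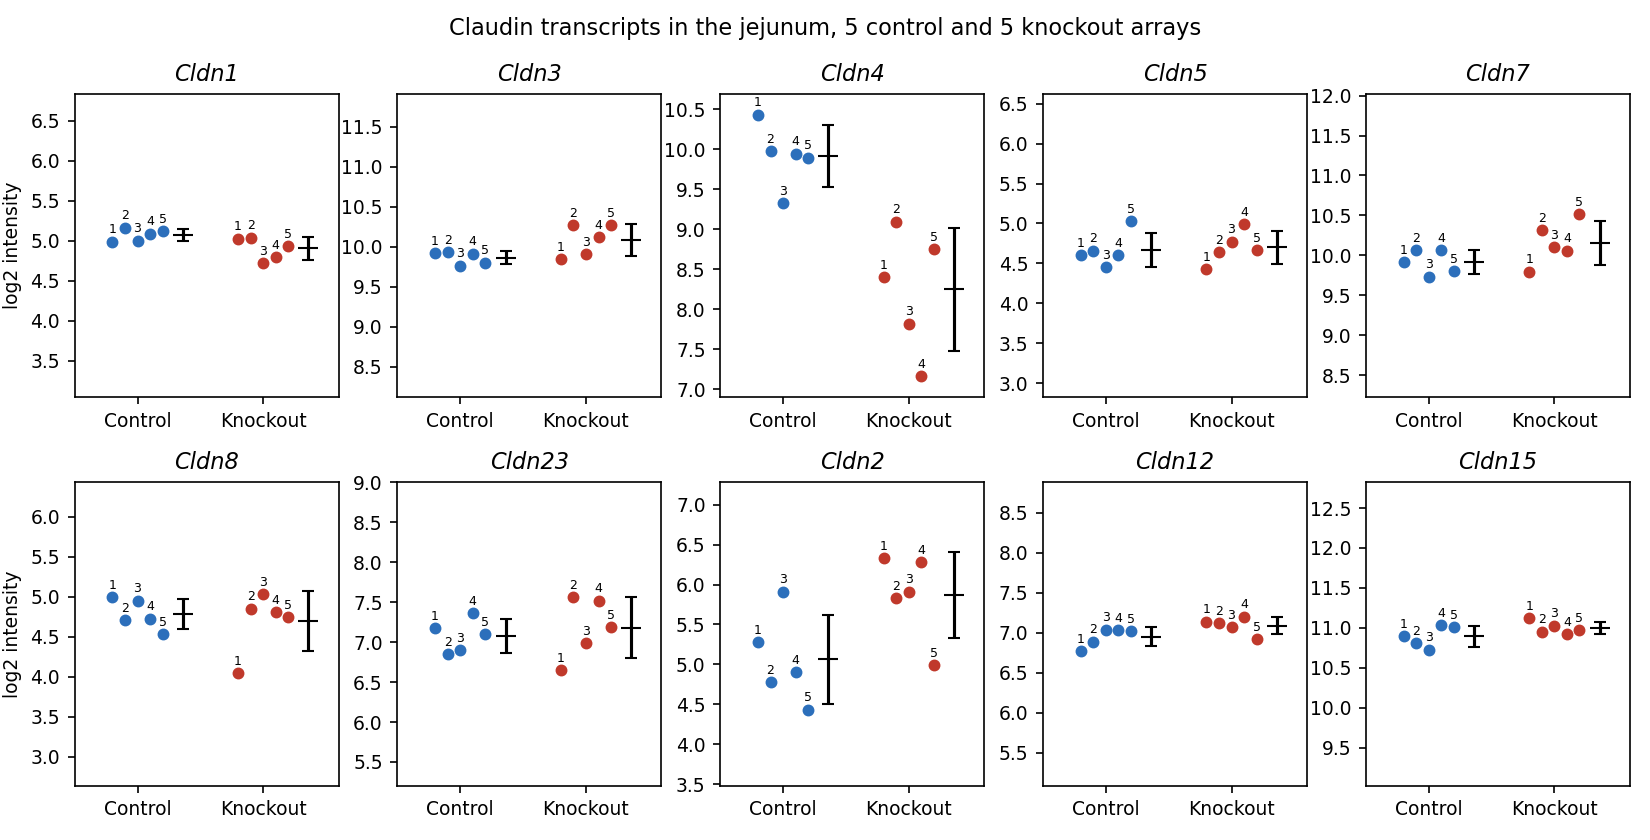
Log2 intensity of each claudin in each array, with the replicate number above each point and the mean ± SD of 5 arrays beside each group. Every panel spans the same number of log2 units, and Cldn4 is the only panel in which the groups do not overlap.

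Cldn4 was lower in every knockout array than in every control array. The log2 intensity in knockouts 1 to 5 was 8.40, 9.10, 7.82, 7.16 and 8.75. In controls 1 to 5 it was 10.43, 9.98, 9.33, 9.95 and 9.90. The highest knockout, at 9.10, lay below the lowest control, at 9.33, and the knockouts were more widely spread (SD 0.77) than the controls (SD 0.39).

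The Cldn4 difference was -1.67 (SE 0.32, 95% confidence interval -2.36 to -0.98), or 3.18-fold lower (1.97 to 5.13), which is 31.4% of the control level. Its limma adjusted p was 0.0521, above the threshold of 0.05, so Cldn4 was not called. By p it ranked 78 of 22180, and 76 genes were called. A difference this far or further below 0 was found for 14 genes, Cldn4 included (0.0631%). The adjusted p was 0.0418 without knockout 1, where the difference was -1.71, and between 0.0538 and 0.127 with any other single array left out. It was also below 0.05 with array weights (0.0342) and without the dimmest 30% of genes (0.0446), and over 23 alternatives it ran from 0.0342 to 0.324.

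Cldn3 had a small difference on the other side. Its values in knockouts 1 to 5 were 9.84, 10.27, 9.91, 10.12 and 10.27, and in controls 1 to 5 they were 9.92, 9.93, 9.76, 9.91 and 9.80. Knockouts 2, 4 and 5 exceeded every control, while knockouts 1 and 3 lay among them. Cldn3 thus differed by 0.22 (SE 0.10; limma adjusted p = 0.416), with a 95% confidence interval from -0.0022 to 0.44. The change in Cldn4 relative to Cldn3 within an array was tested directly. The log2 value of Cldn4 minus that of Cldn3 averaged -1.84 ± 0.71 (SD, n = 5) over the knockouts and 0.05 ± 0.34 (SD, n = 5) over the controls, a shift of -1.89 (SE 0.35). A two-sided exact permutation test gave p = 0.00794, which is as low as 5 against 5 arrays allow, and 0.0238 after adjustment over the 3 ratios tested. This shows unequal change of the 2 neighbouring genes and does not show that Cldn3 was unchanged. Cldn4 alone set the groups apart, and Cldn3 varied little, over a range of 0.43 in the knockouts and 0.17 in the controls. The ratio largely repeats Cldn4 and is not independent support for its difference.

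The other genes around Cldn4 did not share its difference. Of the measured protein-coding genes in gene order, the 4 before Cldn4 are Eln, Tmem270, Cldn13 and Mettl27, with differences of -0.14, -0.10, 0.17 and 0.01. The 4 after Cldn3 are Abhd11, Stx1a, Dnajc30 and Vps37d, with differences of 0.20, -0.03, 0.19 and 0.13. None of these 8 was called, and their 95% confidence intervals lay between -0.45 and 0.46, while that of Cldn4 ended at -0.98.

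**Figure D2:**
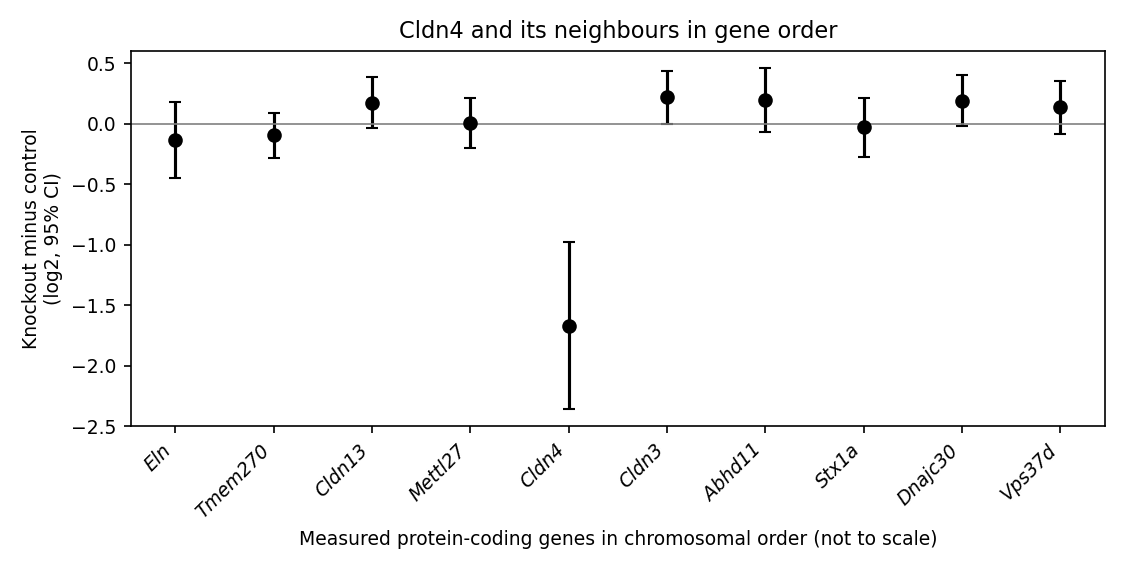
Knockout minus control in log2 intensity, with 95% confidence intervals from limma (5 against 5 arrays), for Cldn4, Cldn3 and 8 measured protein-coding genes around them in chromosomal order, without distances. Cldn4 is the only one far from 0, at -1.67.

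Markers of the villus tip had lower values beside Cldn4. All 8 of 8 were measured, all 8 had lower mean values in knockout (median -0.24), and 0 passed the test. The summed intensity of the list was 23920 to 33238 over the knockouts and 29466 to 38590 over the controls, so the groups overlapped. By p the first 3 were Egfr (-0.31, SE 0.09), the receptor of epidermal growth factor, Nt5e (-1.58, SE 0.50), an ectonucleotidase, and Ada (-0.56, SE 0.28), adenosine deaminase, with limma adjusted p of 0.161, 0.233 and 0.448. Of 10 mature enterocyte markers 8 were also lower (median -0.04) and 0 were called. Among them the first 3 by p were Lct (-0.72, SE 0.15, limma adjusted p = 0.0640), Treh (-0.30) and Fabp2 (0.11). All knockouts lay below all controls for Lct, as for 1.56% of all genes. Knockout 4 had the lowest value of both Cldn4, at 7.16, and the villus tip marker mean, at -0.76 from the mean of all arrays.

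After the group means were taken off, the marker mean and Cldn4 had a Pearson r of 0.74 (Spearman 0.62) over 10 arrays. It was 0.31 without knockout 4 and control 3, the 2 arrays farthest from the median, so the relation rested on them. With the villus tip mean in the fit as a covariate, a choice made once the data had been seen, the Cldn4 difference was -1.07 (SE 0.28, limma adjusted p = 0.120). Nor was the relation particular to Cldn4. With the same marker mean, r within groups was 0.79 for Cldn7, whose mean was higher in knockout, -0.70 for Cldn12 and -0.69 for Cldn2. The part of this marker list in the Cldn4 result was not otherwise tested.

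Cldn4 is also a gene of the epithelium over lymphoid follicles. Of 8 measured markers of M cells and that epithelium, 6 had higher and 2 lower values in knockout, 0 passed, and their sum was 1089 to 1318 over the knockouts and 682 to 1201 over the controls. By p the first was Tnfrsf11a, the receptor for RANK ligand (0.59, SE 0.20, limma adjusted p = 0.272). Next came Ccl20 (0.28, SE 0.11) and Ccl9 (0.37, SE 0.29), both chemokines. For general epithelial genes 6 of 10 had higher values, 0 passed, the first 3 by p were Elf3 (0.36), Krt19 (0.42) and Krt20 (-0.13), and the sum was 35678 to 41303 over the knockouts and 35716 to 42429 over the controls. Neither of these lists had a lower median in knockout, at 0.07 and 0.02.

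Most markers of the enteroendocrine, tuft and goblet cells of the epithelium were lower beside Cldn4, while those of Paneth cells went both ways. All 8 enteroendocrine markers had lower values in knockout (median -0.41), and 2 were called, where 0.171% of all genes were called lower. The hormone genes Gip fell by 0.76 (SE 0.11, limma adjusted p = 0.0191) and Sst by 0.71 (SE 0.12, adjusted p = 0.0296). The next, Chga, was at -0.39 (SE 0.10, adjusted p = 0.118). Their summed intensity did not overlap, at 1747 to 2479 over the knockouts and 2824 to 3317 over the controls. Of 8 tuft markers 6 were lower (median -0.32) and 0 were called, with Rgs13 at -0.62, Trpm5 at -0.30 and Dclk1 at -0.33, and their sum was 498.5 to 563.6 over the knockouts and 618.1 to 722.4 over the controls. Of 8 goblet markers 7 were lower (median -0.26) and 0 were called, with Fcgbp at -0.45, Tff3 at -0.38 and Atoh1 at -0.39, and their sums overlapped (23555 to 28851 and 26329 to 31997). Groups did not overlap for 4 enteroendocrine, 5 tuft and 2 goblet markers, all lower, against 1.56% of all genes. The part of these cell types in the Cldn4 result was not tested.

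The genes whose deviations within groups were most like those of Cldn4, of 17398 named genes over 10 arrays, were Gulo (r = 0.97), Lratd1 (0.94), Mcpt4 (0.94), Gprc5a (0.92) and Trank1 (0.91). Those most unlike it were Snhg17 (-0.94), Zfp386 (-0.93) and Zmym3 (-0.92). These r are the extremes of 17398 values over only 10 arrays, a description with no test. Of these 8, Gprc5a had the difference nearest to that of Cldn4, at -1.39 (SE 0.40, limma adjusted p = 0.174), and the others lay between -0.21 and 0.17.

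Among the pore-forming claudins, Cldn2 had higher values in most knockouts. Its log2 intensity in knockouts 1 to 5 was 6.33, 5.83, 5.91, 6.28 and 4.99. In controls 1 to 5 it was 5.28, 4.78, 5.91, 4.91 and 4.43. The groups overlapped: knockout 5 lay below control 1, and control 3 lay with the knockouts. The difference was 0.81 (SE 0.29, 95% confidence interval 0.18 to 1.43), or 1.75-fold (1.13 to 2.70), with a limma adjusted p of 0.289. Its signal was weak, with linear intensities in control from 21.6 in control 5 to 60.1 in control 3. Over the knockouts they ran from 31.8 in knockout 5 to 80.6 in knockout 1, where array medians lay between 45.8 and 48.1. With 16 added to each intensity before log2, the Cldn2 difference was 0.59 (SE 0.22).

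Within each group Cldn2 moved with the crypt and proliferation markers. Both were lowest in control 5 (marker mean -0.89), and within the knockouts both were lowest in knockout 5 (marker mean -0.60). Control 3 had the highest marker mean of all, 0.61, and the highest Cldn2 of the controls. After the group means were taken off, r was 0.96 (Spearman 0.90) over 10 arrays and 0.92 without knockout 5 and control 5. This was the highest of 70 such values, from 10 claudins and 7 marker lists, and is a description of arrays that share their RNA, with no test.

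Of the 10 crypt markers 9 were measured, 7 with higher and 2 with lower values in knockout, and 0 passed. Their summed intensity was 1650 to 4661 over the knockouts and 1370 to 6007 over the controls. By p the first 3 were the mitotic genes Birc5 (0.86, SE 0.19), Plk1 (0.88, SE 0.27) and Cdk1 (0.59, SE 0.20), with limma adjusted p of 0.0861, 0.208 and 0.272. The stem cell markers of the list gave other values. Lgr5 was at -0.61 (SE 0.27, adjusted p = 0.392), Olfm4 at -0.19 (SE 0.43) and Ascl2 at 0.01 (SE 0.24). With the crypt marker mean in the fit, also a choice made once the data had been seen, the Cldn2 difference was 0.46 (SE 0.11, limma adjusted p = 0.0895). It was 0.30 (SE 0.28) with the villus tip mean, 1.29 (SE 0.35) with the ileum marker mean and 0.53 (SE 0.29) without knockout 1 and control 5.

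**Figure D3:**
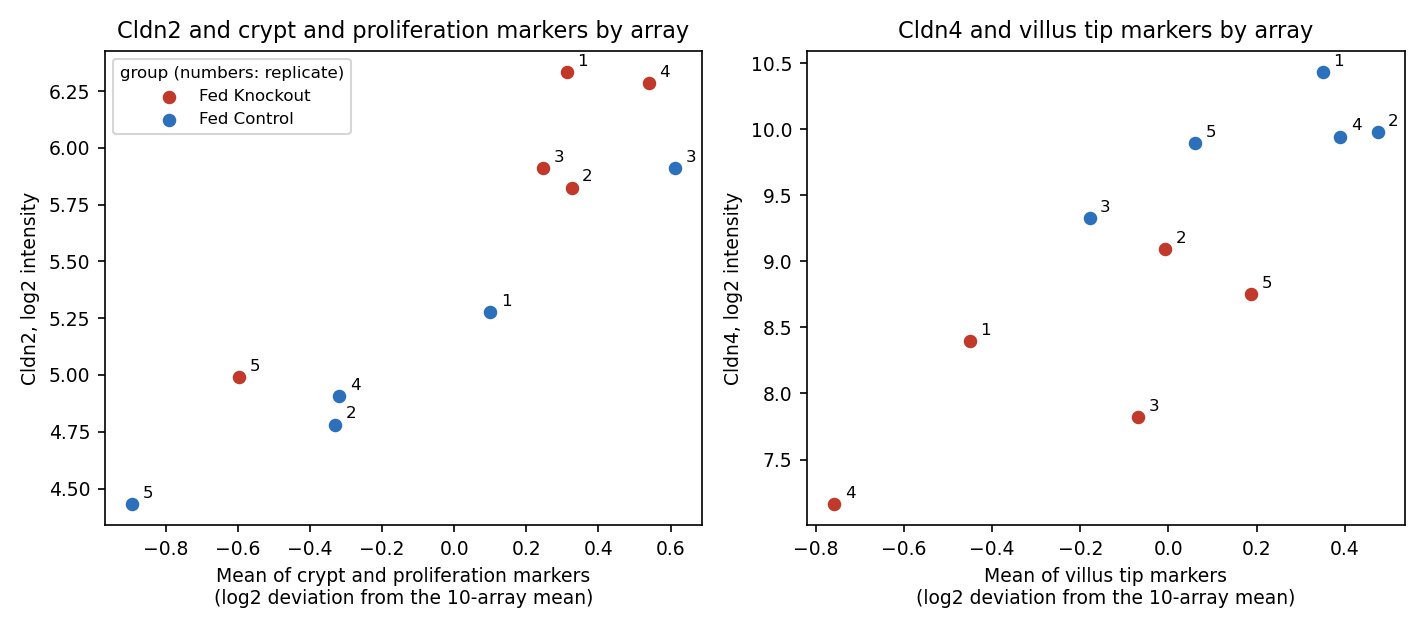
Log2 intensity of Cldn2 against the mean of 9 crypt and proliferation markers, and of Cldn4 against the mean of 8 villus tip markers, in each of 10 arrays, with replicate numbers. Marker means are deviations from the mean of all arrays. Cldn2 and its markers are both lowest in control 5, and Cldn4 and its markers both lowest in knockout 4.

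Cldn15 varied little. Its values were 11.13, 10.95, 11.03, 10.92 and 10.97 in knockouts 1 to 5 and 10.89, 10.81, 10.73, 11.04 and 11.01 in controls 1 to 5. All 5 knockouts exceeded the control mean, yet the ranges overlapped. The difference was 0.11 (SE 0.09), with a 95% confidence interval from -0.08 to 0.29, so a change of more than 1.23-fold upward or 1.06-fold downward lay outside it (limma adjusted p = 0.690). The ratio of the main pores, Cldn2 minus Cldn15, averaged -5.13 ± 0.52 (SD, n = 5) over the knockouts and -5.83 ± 0.66 (SD, n = 5) over the controls. The shift of 0.70 (SE 0.38) had a two-sided exact permutation p of 0.103, also 0.103 after adjustment, and only without control 3 did the adjusted p pass, at 0.0357, with a shift of 0.95.

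Cldn12, a claudin tied to calcium passage between cells, was 7.14, 7.12, 7.07, 7.20 and 6.92 in knockouts 1 to 5 and 6.77, 6.89, 7.04, 7.03 and 7.01 in controls 1 to 5. Knockouts 1 to 4 exceeded every control and knockout 5 lay among them. Cldn12 differed by 0.14 (SE 0.09; limma adjusted p = 0.572), with a 95% confidence interval from -0.05 to 0.33.

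Cldn7, which binds the adhesion protein Epcam, resembled Cldn3. Its values were 9.80, 10.32, 10.10, 10.06 and 10.52 in knockouts 1 to 5 and 9.92, 10.06, 9.73, 10.07 and 9.80 in controls 1 to 5. Knockout 5 was the highest and knockout 1 lay with the controls, and the mean differed by 0.24 (SE 0.13; limma adjusted p = 0.504), with a 95% confidence interval from -0.04 to 0.52. After the group means were taken off, Cldn3 and Cldn7 had the highest r of the 45 pairs of claudins, 0.88 over 10 arrays, and Cldn2 and Cldn7 the lowest, -0.70.

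Epcam itself differed by 0.02 (SE 0.10). Cldn7 minus Epcam averaged -1.75 ± 0.18 (SD, n = 5) over the knockouts and -1.97 ± 0.06 (SD, n = 5) over the controls, a shift of 0.22 (SE 0.09) with a two-sided exact permutation p of 0.0317 and 0.0476 after adjustment over the 3 ratios. The adjusted p rose above 0.05 when any 1 of knockouts 2 to 5 or controls 1 to 4 was left out (0.0556 to 0.0952), and with quantile normalization (0.103). Without knockout 1 the shift was 0.28 with an adjusted permutation p of 0.0119, and without control 5 it was 0.24 with 0.0476.

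The ileum marker mean varied with Cldn3 and Cldn7. Of 10 listed, 9 were measured, 7 with higher values in knockout, 0 called, and their sum was 12024 to 19563 over the knockouts and 13936 to 16635 over the controls. Their mean deviation was -0.76 in knockout 1 and 0.47 to 0.99 in the other knockouts, against -0.56 to -0.08 in control. The markers did not share 1 direction. By p the first 3 were the hormone gene Fgf15 (1.16, SE 0.26), Cubn (-0.84, SE 0.19), a receptor for vitamin B12 uptake whose knockouts all lay below the controls, and Fabp6 (3.89, SE 0.97), with limma adjusted p of 0.0867, 0.0881 and 0.120. With that mean as a covariate the difference of Cldn3 was 0.01 (SE 0.11) and that of Cldn7 was -0.07 (SE 0.12), while Cldn4 stood at -1.85 (SE 0.44, limma adjusted p = 0.324). With the villus tip mean in its place the values went up instead, to 0.32 (SE 0.12) for Cldn3 and 0.47 (SE 0.12, limma adjusted p = 0.108) for Cldn7. Without knockout 1 the values were 0.28 for Cldn3 and 0.33 for Cldn7, and neither was called.

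Cldn23, a claudin of the differentiated gut surface, ranged from 6.65 in knockout 1 to 7.56 in knockout 2 and in control from 6.85 to 7.36. The difference was 0.10 (SE 0.17), 0.23 without knockout 1 and -0.20 with the ileum mean as a covariate. Cldn1, the sealing claudin of the skin barrier, was 5.03, 5.04, 4.72, 4.80 and 4.94 in knockouts 1 to 5 and 4.99, 5.16, 5.00, 5.09 and 5.12 in controls 1 to 5. Knockouts 3, 4 and 5 lay below every control, and the difference was -0.17 (SE 0.09, limma adjusted p = 0.487).

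Cldn8 and Cldn5 were among the dimmest 30% of genes, so their values say least. Cldn1 and Cldn2 lay outside that 30% but were also weak, with control means of 5.07 and 5.06 on the log2 scale. Cldn8, a sealing claudin of the distal gut, was 4.04 in knockout 1, lay between 4.74 and 5.03 in knockouts 2 to 5, and in control between 4.54 and 5.00. Its difference was -0.09 (SE 0.17), 0.08 without knockout 1 and -0.43 (SE 0.18, limma adjusted p = 0.637) with the ileum marker mean as a covariate. Cldn5, the claudin of endothelial cells, was 4.43 to 5.00 over the knockouts and 4.45 to 5.03 over the controls, with a difference of 0.03 (SE 0.13). Its dim signal did not follow the endothelial marker mean, with r of -0.50 over 10 arrays after the group means were taken off. The 10 endothelial markers, in cells where villin-driven Cre is not active, had a median difference of -0.03 with 0 called, Cdh5 first by p at 0.13 (SE 0.16), and their sum was 780 to 1298 over the knockouts and 872 to 1144 over the controls.

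**Figure D4:**
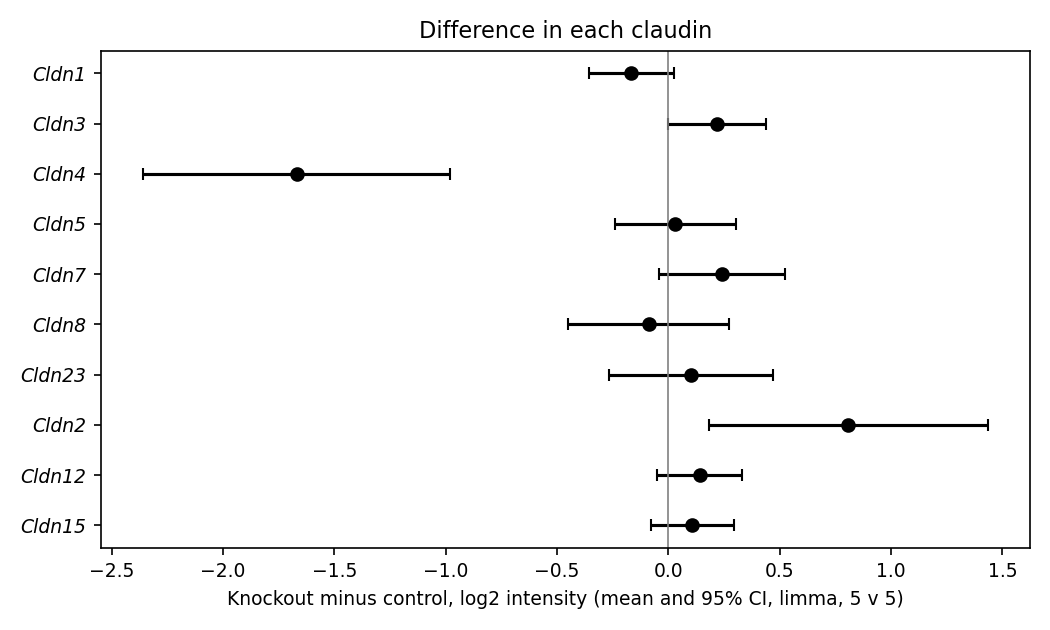
Knockout minus control in log2 intensity for the 10 claudins, as the mean and 95% confidence interval from limma with 5 arrays per group. The interval of Cldn4, -2.36 to -0.98, and that of Cldn2, 0.18 to 1.43, exclude 0 before adjustment for multiple tests.

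The 20 other claudins on the array had differences between -0.19 and 0.18 with a median of 0.03, and 0 were called. None had an unadjusted p under 0.05, against 12.1% of all genes. By p the first 3 were Cldn24 (0.18, SE 0.09), Cldn13 (0.17, SE 0.10) and Cldn18 (-0.15, SE 0.11), at limma adjusted p of 0.473, 0.517 and 0.639.

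Of 34 partners of the claudins in the tight junction 31 were measured and 0 were called, with 19 higher, 12 lower and a median of 0.06. At an unadjusted p under 0.05, which 12.1% of all genes had, there were 3 of 31. They were the scaffold gene Tjp3 (0.33, SE 0.10), Lsr (0.32, SE 0.11), which marks corners where several cells meet, and the polarity gene Pard3 (-0.20, SE 0.07), with limma adjusted p of 0.194, 0.295 and 0.301. Groups did not overlap for 2 of 31, Tjp3 and Pard3, against 2.77% of all genes. Occludin (Ocln, 0.02, SE 0.13) and the scaffold ZO-1 (Tjp1, -0.08, SE 0.13), named for their place in the junction and not by p, had differences smaller than their errors. Every partner lay between -0.23 and 0.36, far less than the difference in Cldn4.

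Among 13 adherens junction genes 0 were called, with 6 higher and 7 lower. The first 3 by p were vinculin (Vcl, -0.48, SE 0.13), Nectin2 (0.47, SE 0.15) and Nectin1 (-0.34, SE 0.16), at limma adjusted p of 0.146, 0.223 and 0.436. Among 7 desmosome genes 0 were called, with desmoplakin (Dsp) at -0.51 (SE 0.15, adjusted p = 0.173) and the plakophilins Pkp2 at 0.26 and Pkp3 at 0.13. Of 20 genes tied to claudin control in the gut 17 were measured and 0 were called, with Gata6 at -0.38 (SE 0.12), Elf3 at 0.36 (SE 0.13) and the kinase Wnk4 at -0.26 (SE 0.10), at limma adjusted p of 0.230, 0.278 and 0.335. At an unadjusted limma p under 0.05, which 12.1% of all genes had, there were 2 of 13 adherens junction genes, 2 of 7 desmosome genes and 4 of these 17. By the same count there were 2 of 8 villus tip, 2 of 8 follicle epithelium, 2 of 10 epithelial, 4 of 9 crypt, 5 of 9 ileum, 2 of 8 duodenal, 6 of 8 enteroendocrine, 6 of 8 tuft and 5 of 8 goblet markers, and 0 of 10 endothelial ones. For mature enterocyte markers it was 1 of 10 and for Paneth markers 0 of 7.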

How the data were processed

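Jejunal RNA from 5 knockout and 5 control samples was read on 10 Affymetrix arrays. The authors deposited linear intensities, made by RMA in Affymetrix Expression Console (version 1.4.1.46), per the submitters' processing notes; its other settings were not given in the sources used here. RMA equalises the arrays, so a change common to most genes cannot be seen. Detection calls were not used, and the small number of arrays limits precision.

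Log2 was taken. Of 41345 probe sets, 23521 had 1 symbol in GEO's platform annotation, 1814 had several and 16010 had none. Each of 22180 genes was represented by its brightest single-symbol probe set on average. All 10 claudins matched a RefSeq table (GRCm38.p6) by Entrez identifier, and it also gave gene order. The test was limma 3.58.1 under R 4.3.3 (lmFit and eBayes, with group alone in the model), with Benjamini-Hochberg adjustment over all genes and a threshold of 0.05. Within-array ratios had two-sided exact permutation tests over all assignments of the arrays.

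Members and gene lists were chosen with earlier results of these data known. Named were all 10 members, Pcyt1a, up to 3 of each list in order of p, and the genes most and least like Cldn4. Fabp2, Sis, Epcam, Lgr5, Olfm4, Ascl2, Ocln, Tjp1 and the neighbours of Cldn4 were named outside this rule. Lists are described by counts and medians, with no list test. Alternatives were other scalings, filters, probe set rules, fits, a pseudocount of 16, covariates, the replicate block and arrays left out. Same-numbered arrays had correlations of deviations from -0.13 to 0.12, so the numbers were not taken as pairs.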

Additional observations from a re-analysis of the deposited data

How the results depend on the processing

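The number of claudins called was 0 under 20 of 24 alternatives. It was 1, Cldn4, without the dimmest 30% of genes, with array weights, without knockout 1 and at an adjusted p under 0.1, so with 1 array left out it ran from 0 to 1. No tight junction partner was called under 24 alternatives. Over all genes the count of 76 ran from 3 with the ileum marker mean as a covariate to 268 without knockout 1. Cldn1, Cldn2, Cldn3, Cldn4, Cldn12 and Cldn15 kept their sign under 23 alternatives, Cldn4 between -1.88 and -1.07 and Cldn2 between 0.30 and 1.29. With the ileum mean as a covariate the sign turned for Cldn5 (-0.10), Cldn7 (-0.067) and Cldn23 (-0.20); the cause was not tested. Cldn5 was also at -0.020 with the villus tip mean, and from -0.042 to 0.12 with 1 array left out. Cldn8 was at -0.43 with the ileum mean, 0.013 without knockout 1 and control 5, and from -0.17 to 0.075 with 1 array left out. Cldn4 minus Cldn3, which largely repeats Cldn4, passed under 14 of 14 alternatives, from -2.05 to -1.61. Cldn2 minus Cldn15 ran from 0.51 to 0.95 with 1 array left out. Cldn7 minus Epcam did not pass with quantile normalization (0.21) and ran from 0.16 to 0.28 with 1 array left out. The replicate block, whose pairing the labels do not state, gave 0 claudins, 27 genes in all, and Cldn4 at -1.67 with an adjusted p of 0.0521; it changed no call on a claudin or partner. Pcyt1a passed under 23 alternatives. Scaling moved the median of all genes by at most 0.02. Signal limits Cldn5 and Cldn8, which are dim, and to a lesser degree Cldn1 and Cldn2, which are weak.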
